A study of Mus musculus with 14 samples.

Results

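Primordial germ cells are the embryonic precursors of eggs and sperm. In mouse arrays from embryonic day (E) 9.5 to E13.5, 7 developmental regulators were followed through the days when these cells settle in the genital ridges and the female and male programmes first part. The 7 were Otx2, Hesx1, Lhx1, Lhx2, Lmo1, Irx3 and Bnc1, out of 18193 genes measured. Members are the probe sets that the platform annotation assigns to exactly 1 of these symbols, which gave 8 probe sets, 2 of them for Lhx1. The genes were chosen by their measured levels, because they split between female and male cells or rose with stage. Their differences between sexes and stages are therefore given as a description, with no test.

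The study measured 7 groups of 2 arrays, labelled as biological replicates. Up to E11.5 there was 1 unsexed group for each day (E9.5, E10.5 and E11.5), and at E12.5 and again at E13.5 there were 2, female (XX) and male (XY), sexed as the labels give it. From E10.5 to E13.5 the embryos came from BDF1 females mated to males carrying a stella-EGFP reporter, a mixed C57BL/6 and CBA background that 2 of the E12.5 samples do not state, and cells from trypsin-treated genital ridges were sorted on EGFP. Stella (Dppa3) is a germ cell gene, so the sort rests on that 1 reporter. E9.5 cells were C57BL/6, came from an earlier study, and are described without a sort in the sources used here. Each sample was 5 ng of total RNA, given as the amount from 500 cells, amplified by PCR for 12 cycles from E10.5 to E13.5 and for 22 cycles at E9.5. RNA was isolated with different kits in these 2 sets, so stage, strain, kit and amplification cannot be told apart between E9.5 and E10.5.

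Of the 7 genes, Otx2, Hesx1, Lhx1, Lhx2 and Irx3 encode homeodomain proteins, which bind short AT-rich DNA motifs and are best known for patterning the early embryo. Lmo1 has LIM domains but no homeodomain, and Bnc1 is a zinc finger protein. LIM domains bind the adaptor LDB1, through which LIM-homeodomain and LIM-only proteins join or compete for the same complexes. Otx2 is also known as a regulator of the primed epiblast that limits entry of epiblast cells into the germline.

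Values were log2 probe set signals. The table median was 4.72, and a level below it is called dim. A difference that starts or ends at a dim level is one of signal and not a ratio of transcript amounts. Array medians lay between 4.66 and 4.80. Replicate arrays correlated across genes, with 1 probe set for each gene, with r from 0.961 to 0.981. The precision was limited by having 2 arrays in a group. Germ cell markers (8 of 9 listed genes measured) averaged 11.6 to 12.4 on the arrays from E10.5 on, and 11.11 and 11.02 at E9.5. In bulk samples, fewer cells of a type and less RNA per cell cannot be told apart.

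By E13.5 the 7 genes fell into 3 patterns. Otx2, Hesx1 and Lhx1 were high in males and stayed near or below their E11.5 level in females. Lmo1 and Bnc1 climbed in both sexes, with males ahead at E12.5 and E13.5. Lhx2 and Irx3 were higher in females than in males at both ages. For Lhx2 the female level climbed, and for Irx3 the male level dropped at E13.5. The 2 arrays of one sex did not overlap those of the other for any of the 7 genes at E12.5 or E13.5, a split on which the genes were selected. Over all 18193 genes, arrays were apart with males higher for 21.0% at E12.5 and 22.8% at E13.5, and with males lower for 28.9% and 26.7%.

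**Figure D1:**
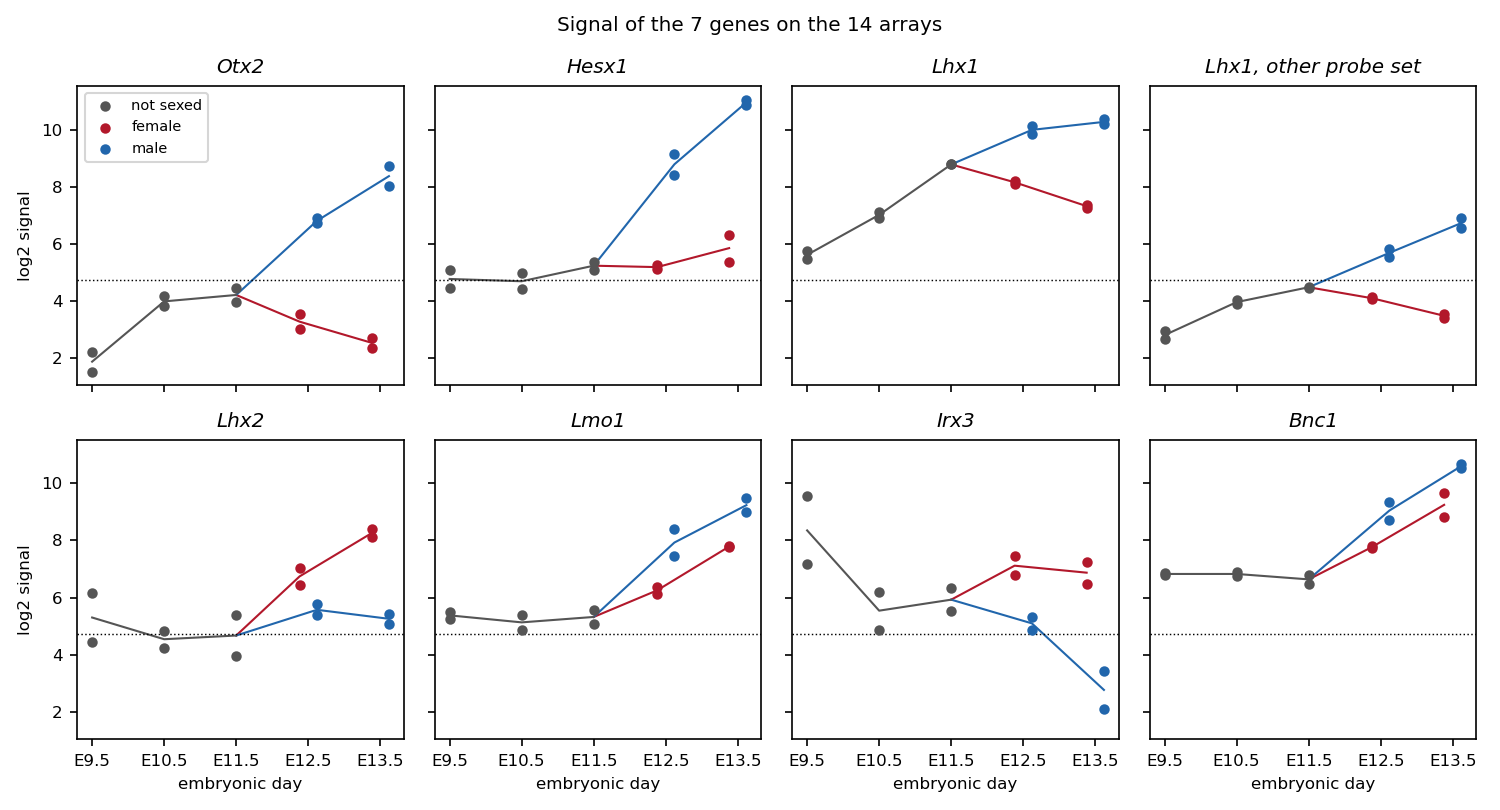
Log2 signal of the 7 genes on each of the 14 arrays, by embryonic day, with points for arrays (unsexed, female and male) and lines through group means of 2. A second Lhx1 panel shows its other probe set, and the dotted line is the table median of 4.72. At E13.5 the male arrays of Otx2, Hesx1, Lhx1, Lmo1 and Bnc1 lie above the female arrays, and those of Lhx2 and Irx3 lie below.

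Otx2, the bicoid-type homeodomain factor of the forebrain and epiblast, had the widest gap between the sexes of the 7 genes at E13.5, while at E12.5 that of Hesx1 was slightly wider. Its E13.5 male arrays read 8.73 and 8.01, and its E13.5 female arrays 2.72 and 2.35. At E12.5 the male arrays read 6.89 and 6.72 and the female arrays 3.54 and 3.01. Both sexes left the E11.5 level (3.95 and 4.47) in opposite directions, so that females were dim at both ages and males were above the table median on all 4 arrays. The unsexed E10.5 arrays (3.81 and 4.16) overlapped those of E11.5, and E9.5 was lowest at 2.23 and 1.52. Every other pair of neighbours in the order of group means was apart.

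The male minus female difference in Otx2 was 3.53 ± 0.35 (log2, standard error of the model of 12 arrays) at E12.5 and 5.84 ± 0.35 at E13.5. These correspond to signal ratios of 11.6 and 57.1. Between the ages it widened by 2.31 ± 0.49, through a gain of 1.57 in males and a loss of 0.74 in females. With values held at a floor of 3.12, the 25th percentile of the table, the E13.5 difference was 5.25 and the widening 1.78. Of these arrays, only females lay below the floor (3.01 on 1 E12.5 array, 2.72 and 2.35 at E13.5). The widening was therefore smaller with the floor because most of the female loss lay below it. Among all genes the E13.5 difference stood at percentile 99.97, a rank that only describes how it was selected.

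RefSeq lists 4 start sites for Otx2. The 250 bases before the third of them are shown because they hold more matches to homeodomain motifs than any other window of the 7 genes. Capitals mark TAATTA, the core bound by many LIM and paired-type homeodomains, and GGATTA, the reverse of the bicoid-type motif TAATCC. The window is chr14:48665110-48665359 on the minus strand (GRCm38.p6), written 5′ to 3′ toward the start.
Otx2: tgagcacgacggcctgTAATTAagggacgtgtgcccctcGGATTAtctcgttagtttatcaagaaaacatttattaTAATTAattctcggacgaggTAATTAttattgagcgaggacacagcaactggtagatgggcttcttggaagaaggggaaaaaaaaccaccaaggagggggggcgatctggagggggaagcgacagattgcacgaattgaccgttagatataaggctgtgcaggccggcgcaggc
It holds 3 TAATTA and 1 GGATTA, searched on both strands. Of all 32851 RefSeq windows of this length, 4.84% hold TAATTA and 6.25% hold TAATCC on either strand. A match is only a run of letters, and binding was not measured.

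Hesx1, a paired-like homeodomain repressor needed for forebrain and pituitary, was highest in E13.5 males, with arrays at 11.05 and 10.86. At E12.5 males read 8.42 and 9.15. Female arrays read 5.26 and 5.11 at E12.5 and 6.32 and 5.38 at E13.5, close to E11.5 (5.10 and 5.37). E10.5 (4.41 and 4.97) and E9.5 (5.09 and 4.45) overlapped each other. Female and unsexed arrays thus lay near the table median, and the male arrays lay well above all of them.

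Males exceeded females in Hesx1 by 3.60 ± 0.35 (log2) at E12.5 and by 5.11 ± 0.35 at E13.5. From E11.5 to E13.5 the male signal grew 52.7-fold and the female signal 1.53-fold. The female step from E12.5 to E13.5 was 0.67, and without E13.5 female replicate 1 it was 0.20, so that array carried most of it. The Hesx1 window, chr14:27000112-27000361 on the plus strand, is shown as the contrast to Otx2, since the search found none of its 3 motifs there. It lies inside the annotated span of Hesx1 (26994419 to 27002329), as the Otx2 window lies inside that of Otx2 (48656781 to 48667644).
Hesx1: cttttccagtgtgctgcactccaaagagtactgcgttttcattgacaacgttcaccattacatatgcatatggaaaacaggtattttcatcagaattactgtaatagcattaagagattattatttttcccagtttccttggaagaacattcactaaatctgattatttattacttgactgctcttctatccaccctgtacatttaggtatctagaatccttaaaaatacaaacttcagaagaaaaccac
The third motif was ATGCAAAT, the octamer of POU factors, which 1.60% of all windows hold and no window of the 7 genes did. The Hesx1 window had 2 CpG dinucleotides, at percentile 18.8 of all windows, and the Otx2 window above had 14.

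Lhx1, the LIM-homeodomain factor of the head organizer and kidney, had higher levels at each unsexed age than at the one before. Its main probe set read 5.75 and 5.48 at E9.5, 7.13 and 6.90 at E10.5 and 8.78 on both arrays at E11.5. Males then read 9.84 and 10.14 at E12.5 and 10.36 and 10.18 at E13.5. Females read 8.20 and 8.11 at E12.5 and 7.37 and 7.27 at E13.5. All 7 groups were apart from their neighbours in the order of levels, with the E13.5 females between E10.5 and the E12.5 females.

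The step in Lhx1 from E10.5 to E11.5 was 1.77 ± 0.19 (log2), against 0.55 in Hesx1 and between -0.19 and 0.39 in the other 5 genes. Males exceeded females by 1.84 ± 0.19 at E12.5 and by 2.95 ± 0.19 at E13.5. On this probe set most of the 1.12 by which the gap grew came from the female loss of 0.84, while the male step was 0.28. The other Lhx1 probe set was dimmer, and it tracked the main one with r = 0.94 over 14 arrays.

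On that other probe set, males exceeded females by 1.59 at E12.5 and 3.25 at E13.5. In size, the probe sets disagreed at 2 steps: from E10.5 to E11.5 it gave 0.52 where the main one gave 1.77, and from E12.5 to E13.5 in males it gave 1.05 where the main one gave 0.28. With a female step of -0.62 on the other probe set, most of the widening there came from males, so which sex contributed more depends on the probe set. On the other probe set all unsexed and female arrays were dim, with E10.5 at 4.03 and 3.89 and E11.5 at 4.46 and 4.50. Its gaps between the sexes thus start from dim female levels. The early climb of Lhx1 therefore had a size that depends on the probe set, while the gap between the sexes was large on both. The single Lhx1 window was rich in CpG, with 26, and held none of the 3 motifs.

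Lmo1, a LIM-only protein that binds LDB1 without touching DNA and is known as an oncogene of T-cell leukaemia, began level in the unsexed groups. It read 5.51 and 5.24 at E9.5, 4.87 and 5.39 at E10.5 and 5.09 and 5.55 at E11.5, and these groups overlapped. Females read 6.13 and 6.37 at E12.5 and 7.77 and 7.80 at E13.5. Males read 7.44 and 8.41 at E12.5 and 9.00 and 9.47 at E13.5. The E12.5 males overlapped the E13.5 females, so on these arrays females had at E13.5 about the level that males had a day earlier.

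The male minus female difference in Lmo1 was 1.68 ± 0.34 (log2) at E12.5 and 1.45 ± 0.34 at E13.5. From E11.5 to E13.5 the signal grew 15.1-fold in males and 5.52-fold in females. The change of the sex difference between the ages, -0.23 ± 0.48, was -0.71 when E12.5 male replicate 1 was left out and 0.26 when replicate 2 was. RefSeq gives Lmo1 2 overlapping start windows, and the first, chr7:109175208-109175457 on the minus strand, is shown because Lmo1 is the only member besides Otx2 with a motif match. It holds 1 TAATTA, in capitals.
Lmo1: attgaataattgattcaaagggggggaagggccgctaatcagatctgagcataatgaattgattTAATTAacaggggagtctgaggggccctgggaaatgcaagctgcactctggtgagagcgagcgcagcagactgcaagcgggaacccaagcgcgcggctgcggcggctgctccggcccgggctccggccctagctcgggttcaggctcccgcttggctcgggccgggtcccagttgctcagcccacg

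Bnc1, a zinc finger protein of basal keratinocytes and of germ cells, was flat before E12.5 and then climbed in both sexes. E10.5 (6.91 and 6.74) overlapped both E9.5 (6.85 and 6.80) and E11.5 (6.78 and 6.49), while E9.5 and E11.5 lay narrowly apart. Females read 7.75 and 7.79 at E12.5 and 9.67 and 8.82 at E13.5. Males read 8.73 and 9.36 at E12.5 and 10.68 and 10.53 at E13.5. As in Lmo1, E13.5 females overlapped E12.5 males.

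Males exceeded females in Bnc1 by 1.28 ± 0.30 (log2) at E12.5 and by 1.36 ± 0.30 at E13.5, a gap whose change of 0.09 ± 0.42 was smaller than its error. The rise from E11.5 to E13.5 was 15.7-fold in males and 6.11-fold in females. Lmo1 and Bnc1 followed each other over the 12 arrays from E10.5 on with r = 0.972, the closest pair among the 7 genes. These points share arrays, groups and the selection, so no test is attached. The Bnc1 window had the most CpG of the member windows, 39, at percentile 98.4 of all windows, where the median was 6.

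Lhx2, a LIM-homeodomain factor of forebrain, eye and hair follicle, was the gene of the 7 with its highest levels in females. Female arrays read 6.43 and 7.05 at E12.5 and 8.39 and 8.12 at E13.5. Male arrays read 5.38 and 5.76 at E12.5 and 5.07 and 5.44 at E13.5. These male arrays overlapped E9.5 (6.17 and 4.43), and the E13.5 males overlapped E11.5 (5.38 and 3.96), which overlapped E10.5 (4.83 and 4.25). All 4 female arrays lay above every male and unsexed array.

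The male minus female difference in Lhx2 was -1.17 ± 0.44 (log2) at E12.5 and -3.00 ± 0.44 at E13.5. From E11.5 to E13.5 the female signal grew 12.0-fold. Replicate spread was wide at the earlier ages: the step from E11.5 to E12.5 was 2.07 in females and 0.90 in males, but 2.78 and 1.61 without E11.5 replicate 1, and 1.36 and 0.19 without E11.5 replicate 2. From E10.5 to E11.5 the difference of 0.13 took either sign when 1 E11.5 array was left out, from -0.58 to 0.84.

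Irx3, an Iroquois homeodomain factor of neural, heart and limb patterning, was the single gene of the 7 with its lowest level in E13.5 males, at 2.11 and 3.42. E12.5 males read 5.33 and 4.86. Females read 6.79 and 7.44 at E12.5 and 6.48 and 7.26 at E13.5, and these 2 groups overlapped. E11.5 (6.32 and 5.53) and E10.5 (6.21 and 4.87) overlapped as well. Males thus went dim at E13.5, while females stayed somewhat above the unsexed E11.5 cells.

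Females exceeded males in Irx3 at both ages, with a male minus female difference of -2.02 ± 0.55 (log2) at E12.5 and -4.11 ± 0.55 at E13.5. From E12.5 to E13.5 the male difference was -2.33, whereas the female difference of -0.25 had overlapping arrays. E9.5 was the highest group but its arrays were far apart, at 9.54 and 7.16. The difference from E9.5 to E10.5, -2.81, was -1.62 without E9.5 replicate 1 and -4.00 without E9.5 replicate 2. That replicate 1 also had the higher mean of the gonadal somatic markers, 5.66 against 4.90, and of the blood markers, 11.65 against 10.31. Its endothelium markers were lower, 6.12 against 6.37, while every other list was higher, germ cell markers included (11.11 against 11.02). The part of other cells in the E9.5 levels of Irx3 and Lhx2 was not tested.

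**Figure D2:**
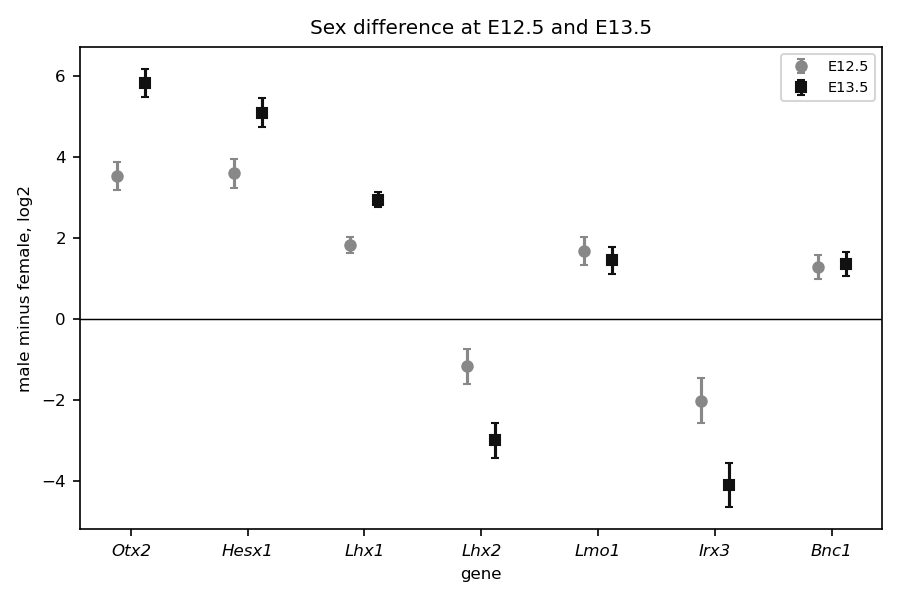
Male minus female difference of each of the 7 genes at both ages, in log2, with standard errors of the model of 12 arrays. Otx2, Hesx1, Lhx1, Lhx2 and Irx3 lie farther from 0 at E13.5 than at E12.5, while Lmo1 (1.68 and 1.45) and Bnc1 (1.28 and 1.36) stay within their errors.

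The sexes were already apart at E12.5, the first age at which they were measured separately, so the time of parting is not known. Against E11.5, arrays of E12.5 males were apart and higher for 5 of the 7 genes (19.9% of all genes) and lower for 1 (19.7%). Arrays of E12.5 females were higher for 4 (26.3%) and lower for 2 (19.6%). From E12.5 to E13.5 males were higher for 5 (27.9%) and lower for 1 (19.5%), and females higher for 4 (26.8%) and lower for 2 (21.3%). These counts rest on the stage differences that helped to choose the genes, and both sexes at E12.5 share the E11.5 arrays. Otx2 and Lhx1 were the 2 genes with males above and females below at both steps.

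Genes with the most similar profile were sought by Pearson r over the 12 arrays from E10.5 on, among 5196 genes whose group means spanned at least 1 log2 unit and rose above the table median. Otx2 was followed most closely by Snx11 (0.974), Cthrc1 (0.973) and Pdlim3 (0.964). Cthrc1, a secreted collagen-associated protein, averaged 5.33 in females and 10.76 in males at E13.5. For Hesx1 the nearest were Fxyd6 (0.989), Dgka (0.984) and Ctsw (0.983), and Dgka, a diacylglycerol kinase, averaged 7.39 and 10.99. For Lhx1 they were Lhx1os (0.976), Krt222 (0.969) and Mapk13 (0.962).

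Lhx1os is a noncoding gene annotated beside Lhx1. Its group means were 4.62 at E10.5, 6.78 at E11.5, 5.53 in E13.5 females and 8.69 in males, so it too was higher at E11.5 than at E10.5. Lmo1 was nearest to Lat (0.971), Tnnt1 (0.965) and Taf9b (0.964), and Bnc1 to Tnnt1 (0.971), Dido1 (0.963) and Tex11 (0.962). Tnnt1, a slow muscle troponin, was thus common to both, with means of 9.80 in females and 11.15 in males at E13.5. Tex11 is an X-linked meiotic gene, and it averaged 6.68 and 7.48.

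On the female side, Lhx2 was nearest to Vps4a (0.982), Esyt3 (0.973) and Ckap4 (0.972). Ckap4, a membrane protein of the endoplasmic reticulum, averaged 9.25 in females and 7.63 in males at E13.5. Irx3 was nearest to Smim10l2a (0.981), Ftsj1 (0.973) and Cdx1 (0.960). Cdx1, a caudal-type homeobox gene, averaged 6.29 and 4.74. These correlations describe profiles that share 12 arrays.

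Relatives and partners of the 7 genes were taken from a list of 52, of which 48 were measured, and were tested with limma, with p-values adjusted over all 18193 genes by the Benjamini-Hochberg method. At E13.5, 3 of the 48 were higher and 5 lower in males than in females. The same call was made for 4.18% and 5.99% of all genes, so these counts lie near the background. The median difference was 0.01 (log2) over the 48 and -0.02 over all genes.

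Bnc2, the other basonuclin, rose in males at both steps after E11.5. Its arrays read 4.97 and 5.26 at E11.5 and 6.86 and 7.42 in E12.5 males. The E13.5 arrays read 9.93 and 10.23 in males and 7.22 and 7.53 in females. In males it rose by 2.03 ± 0.34 (log2) from E11.5 to E12.5 (limma adjusted p = 0.0245) and by 2.94 ± 0.34 from E12.5 to E13.5 (adjusted p = 0.00321). Males were higher at E13.5 by 2.71 (adjusted p = 0.000673). The first step did not pass when any 1 of its 4 arrays was left out, and the second did not pass without E12.5 male replicate 1 (adjusted p = 0.0535). In E12.5 males against females the difference was 1.19 (adjusted p = 0.123).

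Among the 5 Iroquois relatives of Irx3, limma called 3 lower in males than in females at E13.5 (5.99% of all genes) and 0 higher (4.18%). The median over the 5 was -1.93 (log2), against -0.02 over all genes. Irx2 averaged 6.15 ± 0.57 in males and 8.40 ± 0.64 in females (SD, n = 2), a difference of -2.25 (limma adjusted p = 0.00375). Irx4 averaged 2.67 ± 0.17 and 5.62 ± 0.33, a difference of -2.95 from a dim male level (adjusted p = 0.000959). Irx5, named beyond the 4 largest changes because it neighbours Irx3, averaged 4.79 ± 0.14 and 6.72 ± 0.27, a difference of -1.93 (adjusted p = 0.00218). Irx1, at means of 6.08 in males and 5.965 in females, and Irx6, at 3.49 and 3.90, did not pass. Irx3, Irx5 and Irx6 lie next to each other on one chromosome, and Irx1, Irx2 and Irx4 on another. The relatives called lower in males thus came from both clusters, Irx5 from the first and Irx2 and Irx4 from the second.

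At E12.5, 1 Iroquois gene passed. Irx4 was lower in males, with a difference of -2.76 ± 0.39 (log2, limma adjusted p = 0.00492), the single call among the 48 (0 higher, 1 lower; background 0.665% and 1.73%). Without E12.5 female replicate 1 or E12.5 male replicate 1 it did not pass. Irx2, at -1.55, and Irx5, at -1.27, did not pass at E12.5 (adjusted p = 0.0659 and 0.0561).

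Against E11.5, 2 of the 48 were higher in E12.5 females (1.41% of all genes) and none was lower (0.445%). They were Irx4, higher by 2.62 (limma adjusted p = 0.0117), and Irx2, higher by 2.05 (adjusted p = 0.0256). Irx2 did not pass when any 1 of the 4 arrays was left out, and Irx4 passed only without E11.5 replicate 1. In E12.5 males 1 was higher, Bnc2 (0.330%), and none was lower (0.676%).

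The other calls at E13.5 were smaller or dim. Rax, a retinal paired-type homeobox gene, read 3.70 and 4.45 in males and 0 and 1.03 in females, dim in both (adjusted p = 0.0158 with limma), and it did not pass in 3 of the 4 fits without 1 array or with the floor. Lmo4, a LIM-only relative of Lmo1, was lower in males, with a difference of -1.19 (log2, limma adjusted p = 0.00488), opposite in sign to Lmo1. Isl2, a LIM-homeodomain relative of Lhx1, differed by -1.18 (limma adjusted p = 0.0095), and Utf1, an epiblast chromatin factor, by 1.12 (adjusted p = 0.0324). Without E13.5 female replicate 1 Lmo4 did not pass, Isl2 did not without replicate 2 of either sex, and Utf1 passed in 1 of 4 such fits and in 4 of 8 other settings. Lmo4, Isl2 and Utf1 lie outside the 4 largest changes and were named after their values were seen.

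Of the remaining LIM-homeodomain relatives none passed between the sexes. Lhx8, known from the oocyte, differed by -1.39 at E13.5 (limma adjusted p = 0.0812), and Lhx9, known from the gonad soma, by -0.17 (adjusted p = 0.888). Lhx8 and Lhx9 were named after their values were seen. Of 7 measured epiblast genes, Utf1 was the 1 that passed between the sexes. Fgf5 differed by 0.63 (limma adjusted p = 0.256) and Pou3f1 by -0.67 (adjusted p = 0.307), and both were named after their values were seen.

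From E12.5 to E13.5 in males, Bnc2 was 1 of the 48 higher (1.36% of all genes) and Isl2 the 1 lower (0.731%), by -1.34 (limma adjusted p = 0.0193), and Isl2 did not pass when any 1 of the 4 arrays was left out. Limma called 0 of the 48 from E10.5 to E11.5 (background 0.0770% in either direction). It called 0 from E12.5 to E13.5 in females (1.87%) and 0 for the change of the sex difference (0.0110%). At an unadjusted p under 0.05 there were 8, 9 and 3. Those percentages are for the adjusted threshold. No share of all genes at the unadjusted threshold is given, so these counts cannot be read as an excess. Pitx1 was the 1 gene called from E9.5 to E10.5 (1.06%), lower at E10.5, with a difference of -1.32 (limma adjusted p = 0.0429), and it did not pass without E9.5 replicate 1 or E10.5 replicate 2. Under quantile normalization the higher share of all calls moved from 76.0% to 60.9% in E12.5 females against E11.5, from 65.1% to 54.0% in males from E12.5 to E13.5, and from 27.8% to 38.1% for males against females at E12.5.

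**Figure D3:**
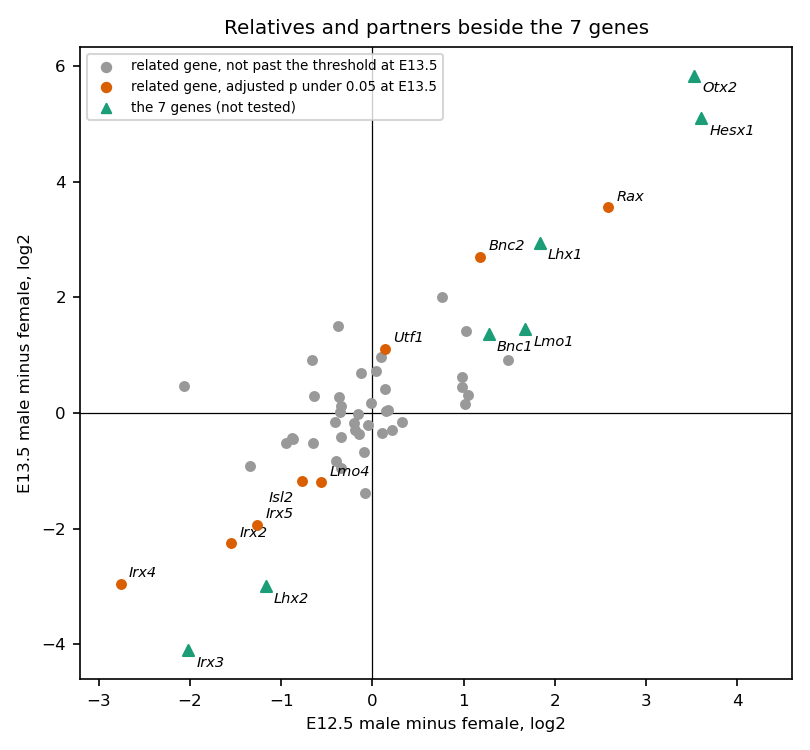
Male minus female difference at E13.5 against that at E12.5, in log2, for the 48 measured related genes and the 7 genes themselves, with genes that passed at E13.5 marked. Bnc2 lies at 1.19 and 2.71, and Irx2, Irx4 and Irx5 lie below 0 on both axes.

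Markers of other cells of the genital ridge were set beside these sex differences. The mean log2 signal of 7 male supporting cell markers was 5.56 to 5.99 on male arrays, 3.90 to 4.77 on female arrays and 4.11 to 4.67 on unsexed arrays. Within the list, Cst9 read 7.20 to 9.11 in males and 1.15 to 3.52 in females, and Ptgds 5.95 to 7.54 and 3.76 to 4.66. Sox9, which defines Sertoli cells, was dim on all 14 arrays (2.05 to 4.23), and Amh lay between 5.67 and 6.24 on all of them. Cst9 and Ptgds thus moved with the genes high in males. Over both ages the male and female ranges of Sox9 and Amh overlapped. At E13.5 alone, Sox9 was lower in males (2.39 and 2.82) than in females (2.95 and 3.31). At E13.5, 4 of the 7 markers were apart and higher in males (22.8% of all genes) and 1, Sox9, was lower (26.7%). The higher ones were Cst9, Ptgds, Dhh and Cbln4, the last dim on all 14 arrays. Limma called 2 of the 7 higher (4.18%) and 0 lower (5.99%). The part of such cells in the male levels was not tested.

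For the genes high in females, the 6 female supporting cell markers averaged 5.73 to 5.92 on E13.5 female arrays and 5.68 to 5.87 on E13.5 male arrays, which overlapped. Single markers of this and the mesonephros list separated the sexes in both directions. Gata3 read 5.58 to 6.28 in females and 2.97 to 4.50 in males, and Wnt4 read 6.62 to 7.49 and 6.01 to 6.54. At E13.5, limma called 2 of the 6 female supporting markers lower in males (5.99% of all genes) and 0 higher (4.18%). By array overlap, 2 of the 6 were apart and lower in males (Wnt4 and Bmp2, against 26.7% of all genes). Another 2 were apart and higher (22.8%). The latter were Rspo1, at 8.83 and 9.06 in males against 7.86 and 7.76 in females, and Fst, at 5.09 and 6.29 against 4.80 and 5.03. Foxl2 overlapped between the sexes over both ages, at 5.44 to 6.02 in females and 5.49 to 5.64 in males. Ret of the mesonephros list was higher in males too, at 7.56 and 7.47 against 6.59 and 6.52. Of the 6 measured mesonephros markers, 3 were apart and higher in males at E13.5 (Ret, Cdh16 and Emx1, against 22.8% of all genes). There, 1 was lower (Gata3, 26.7%), while limma called 0 of the 6 higher (4.18%) and 1 lower (5.99%). The 10 gonadal somatic markers averaged 3.98 to 4.17 on E12.5 female arrays and 4.06 to 4.14 on E12.5 male arrays, which overlapped. At E13.5 the male means, 4.36 and 4.69, lay above the female means, 4.30 and 4.20. There, 4 of the 10 were apart and higher in males (22.8% of all genes) and 1 was lower (26.7%). Limma called 0 of the 10 higher (4.18%) and 1 lower (5.99%). Wt1 read 5.68 and 5.62 in males against 4.06 and 4.50 in females, and Dlk1 3.21 and 3.16 against 4.58 and 4.78. Nr2f2 was dim on all 14 arrays. The part of these cells in the levels of the 7 genes was not tested.

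**Figure D4:**
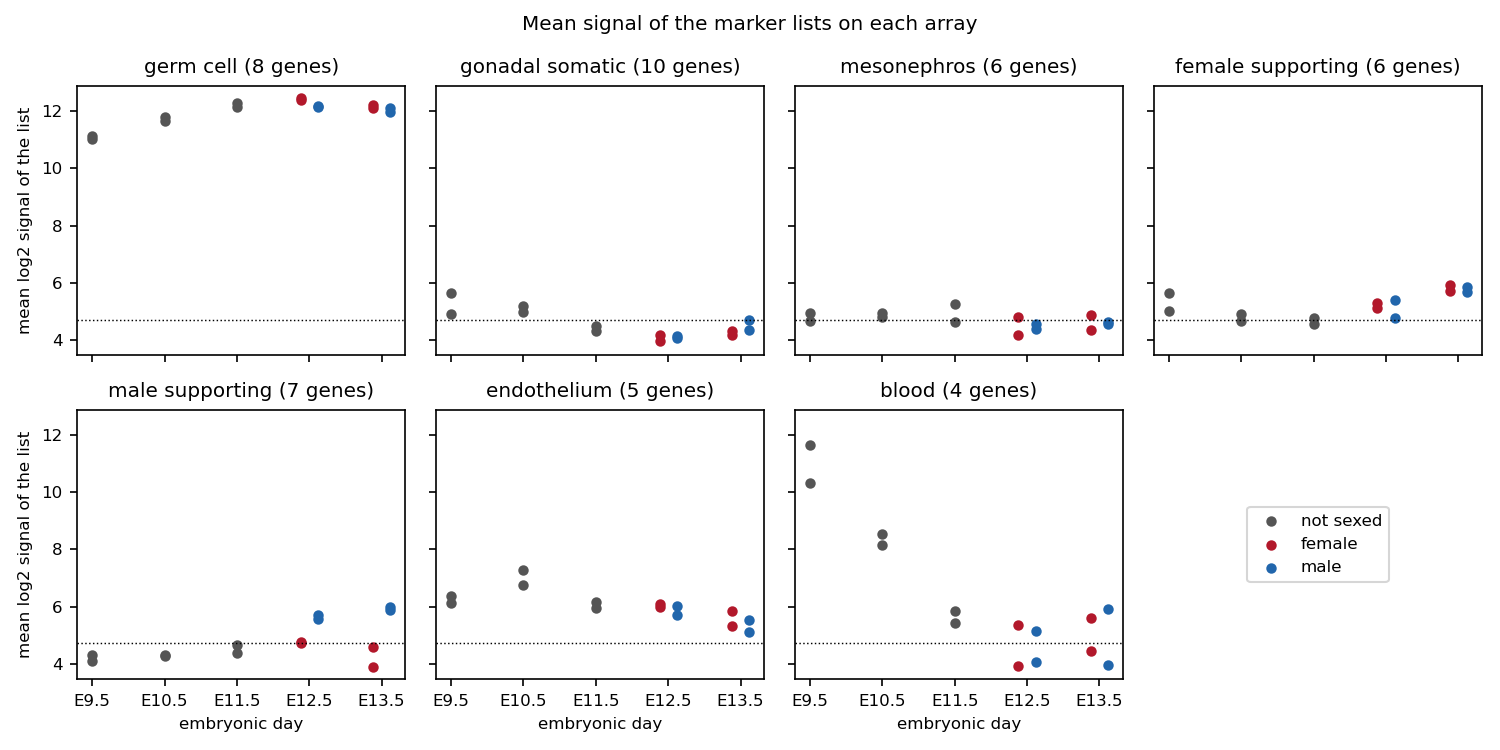
Mean log2 signal of each marker list on each of the 14 arrays, by group, with 1 point per array and the table median of 4.72 dotted. Germ cell markers lie between 11.02 and 12.44 on all arrays, male supporting cell markers are higher on male arrays (5.56 to 5.99) than on female arrays (3.90 to 4.77), and blood markers are highest at E9.5.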

How the data were processed

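Per the labels and the series' design text, the authors normalized all 14 arrays together, those of E9.5 from an earlier study included. For software and background correction, the sources used here give nothing. The deposited signals were taken as log2 from their values (0 to 14.04, with 1.54% to 1.83% of an array's values at 0). Of 45101 probe sets (64 controls), 34945 carried a single symbol in the platform annotation and were used, of which 34741 matched RefSeq by Entrez identifier. For each of 18193 genes the probe set of highest mean was used, and for Lhx1 both are described.

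The model, limma 3.58.1 under R 4.3.3, had 1 mean per group and an intensity trend, over the 12 arrays from E10.5 on (14 for E9.5). The limma fit of E13.5 males against females was tested on simulated data with the same spread for every gene. Other steps were not tested in this way. Two-sided p-values were adjusted over all genes by the Benjamini-Hochberg method with a threshold of 0.05. Standard errors pool 2 arrays per group. The members and lists were chosen with earlier results of these data known. The text names the 7 members, the 3 most similar genes of each, and up to 4 passing related genes per comparison by size, and says where it goes beyond. Promoter windows are RefSeq's (GRCm38.p6), matched by symbol for 7 of 7 members in 12 windows. Alternatives were quantile normalization, median centring, all probe sets averaged, a floor, dim genes left out, a replicate block, the compared arrays alone, no trend, and each array left out.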

Additional observations from a re-analysis of the deposited data

Results flagged for a closer look

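In 5 cases every male array moved one way and every female array the other over the same step. For Otx2 the step from E11.5 to E12.5 was 2.60 (log2) in males and -0.94 in females, a gap of 3.53, and the step from E12.5 to E13.5 was 1.57 and -0.74, a gap of 2.31. For Lhx1 the same steps were 1.21 and -0.63, a gap of 1.84, and 0.28 and -0.84, a gap of 1.12. For Irx3 the step from E11.5 to E12.5 was -0.83 in males and 1.19 in females, a gap of -2.02. The genes were selected on differences between the sexes, so these gaps were not tested, and both sexes share the E11.5 arrays. The Otx2 and Lhx1 female levels and the Irx3 male level ended below where they started.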

How the results depend on the processing

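No difference of the 7 genes reversed beyond its spread. Under quantile normalization, median centring and the replicate block, all 63 differences moved by less than 1 SD of the replicates. Averaging probe sets moved 4, all of Lhx1 (0.66 for males from E12.5 to E13.5 and 3.10 between the sexes at E13.5), the floor moved 4, all of Otx2, and leaving out 1 array moved 44 values and kept 236 within that spread. Leaving out genes with a mean below 6.36 removed Otx2, Lhx2 and Irx3 and kept 4 of the 7.

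The count of related genes past the threshold changed as follows. From E10.5 to E11.5 (0 genes), quantile normalization gave 1, and leaving out 1 array 0 to 1. For E12.5 females against E11.5 (2 genes), the floor and no trend gave 1, dim genes left out and the compared arrays alone gave 0, and 1 array less gave 0 to 1. For E12.5 males (1 gene), centring and dim genes left out gave 2, the floor, the compared arrays alone and no trend gave 0, and 1 array less 0 to 1. From E12.5 to E13.5 in females (0 genes), quantile normalization, the replicate block and the compared arrays alone gave 1. In males (2 genes), the compared arrays alone gave 1, and 1 array less 0 to 1. Between the sexes at E12.5 (1 gene), dim genes left out gave 0, the replicate block 3 and the compared arrays alone 2, and 1 array less 0 to 1. At E13.5 (8 genes), dim genes left out gave 4 and 1 array less 5 to 6. The Utf1 call there was also lost with averaged probe sets, the floor, the compared arrays alone and no trend, and the Rax call with the floor. The 4 relatives Bnc2, Irx2, Irx4 and Irx5 passed at E13.5 in every fit that tested them. From E9.5 to E10.5 (1 gene), quantile normalization, centring, averaged probe sets, dim genes left out, the compared arrays alone and no trend gave 0, and 1 array less 0 to 8. The causes were not tested.

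Replicate numbers did not pair the arrays: over 15 pairs of groups the deviations correlated between -0.19 and 0.27, with 2 over 0.1. No detection calls were used, so dim levels, such as Otx2 in females and Irx3 in E13.5 males, have an uncertain order. With 2 arrays per group, no outlying array can be tested for.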
